A study of Mus musculus with 9 samples.

Results

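The triglyceride stores of a liver cell lie in lipid droplets, and 10 genes of droplet coats, droplet fusion, lipases and triglyceride synthesis are described here: Pparg, Plin2, Plin4, Plin5, Cidec, Cideb, Pnpla2, Pnpla3, Dgat1 and Dgat2. They were taken by gene symbol from tables that list 20325 genes for each liver. All 10 were found in all 9 livers and entered the fit of 12037 genes, Pnpla3 only through its counts in 1 group. RNA with poly(A) tails was sequenced from whole liver tissue of C57BL/6J males, 3 livers in each of 3 groups. ConvD mice were germ-free mice that were gavaged at 15 weeks of age with cecal material from conventionally raised donor mice and carried it for 4 weeks. GF+SCFA mice were kept germ-free and had short-chain fatty acids, products of gut fermentation, in their water: acetate at 67.5 mM, propionate at 25.9 mM and butyrate at 40 mM. GF mice were kept germ-free and had no supplement. Mice of all 3 groups were bred germ-free and ate a sterilized chow with 23.7% of its energy from fat, 53.2% from carbohydrate and 23.1% from protein. The labels give the age as 14 weeks in one place and as 19 weeks at dissection in another. Mice were caged by colonization status, so cage and group cannot be told apart, and the animal behind each sample is not named.

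A lipid droplet is a core of triglyceride and cholesterol ester under a single layer of phospholipid, to which coat proteins attach. The enzymes encoded by Dgat1 and Dgat2 make triglyceride at the endoplasmic reticulum. Perilipins coat the droplet and control access of lipases, CIDE proteins transfer lipid between droplets, and ATGL, encoded by Pnpla2, starts triglyceride breakdown. PPAR-gamma, encoded by Pparg, is the nuclear receptor that drives fat storage in adipocytes and, at lower levels, takes part in lipid storage in hepatocytes.

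Libraries held 18193071 to 21627696 expected counts. Livers of a group differed by far more than counting noise, and GF replicate 3 and ConvD replicate 3 lay farthest from the others of their groups (chi-square per degree of freedom 38.2 and 51.2 in GF, 32.3 and 48.2 in ConvD, against 10.8 to 20.3 for the other pairs). Hepatocyte markers summed to 90386 to 119444 TPM (a transcript level scaled for gene length and depth) in every liver, so the defining transcripts of hepatocytes were present. Single markers moved: Cps1 (-0.67, adjusted p = 0.00263) and Tat (-1.14, adjusted p = 0.00153) were lower and Ttr (0.36, adjusted p = 0.0143) higher on the log2 scale in ConvD than in GF livers, by edgeR, and Hnf4a was lower in ConvD than in GF+SCFA livers (-0.30, adjusted p = 0.034). Of 9 adipocyte markers, Adipoq, Lep, Plin1 and Retn were at 0 in all 9 livers and 0 of 3 tested passed in any comparison. Of the others, Cfd was above every GF liver in all ConvD livers (log2 fold change 2.32 by edgeR, adjusted p = 0.0561). It had 13.1, 7.37 and 2.48 TPM in ConvD and 0.67, 1.18 and 2.44 TPM in GF livers. Cidea, too low to be tested, had 0.60, 0.28 and 0.15 TPM in ConvD, 0.46, 0.28 and 0 TPM in GF+SCFA and at most 0.13 TPM in GF livers. The other tested markers, Fabp4 (0.22 by edgeR, adjusted p = 0.400) and Lipe (0.11, adjusted p = 0.630), overlapped between ConvD and GF livers. The adipocyte sums were 28.5 to 39.4 TPM in ConvD, 19.7 to 23.6 TPM in GF+SCFA and 21.3 to 24.1 TPM in GF livers. Macrophage markers summed to 488 to 677 TPM in ConvD, 343 to 422 TPM in GF+SCFA and 298 to 418 TPM in GF livers. In whole liver, a change in the number of cells of a type and a change in RNA per cell cannot be told apart.

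The 10 genes spanned more than 3 orders of magnitude in TPM. Dgat2, Cideb and Plin2 held 88.8% to 92.0% of their summed TPM in each liver. Pnpla2, Plin5, Dgat1 and Pparg came next, and Cidec, Plin4 and Pnpla3 were lowest. The order at the top depended on the group. In GF+SCFA and GF livers the order was Dgat2, Cideb, Plin2, while in ConvD livers Plin2 stood first and the ranges of Dgat2 and Cideb overlapped. The summed TPM of all 10 was 1145, 986 and 939 in ConvD, 969, 1007 and 922 in GF+SCFA and 867, 949 and 1032 in GF livers. These sums overlapped between all groups.

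**Figure D1:**
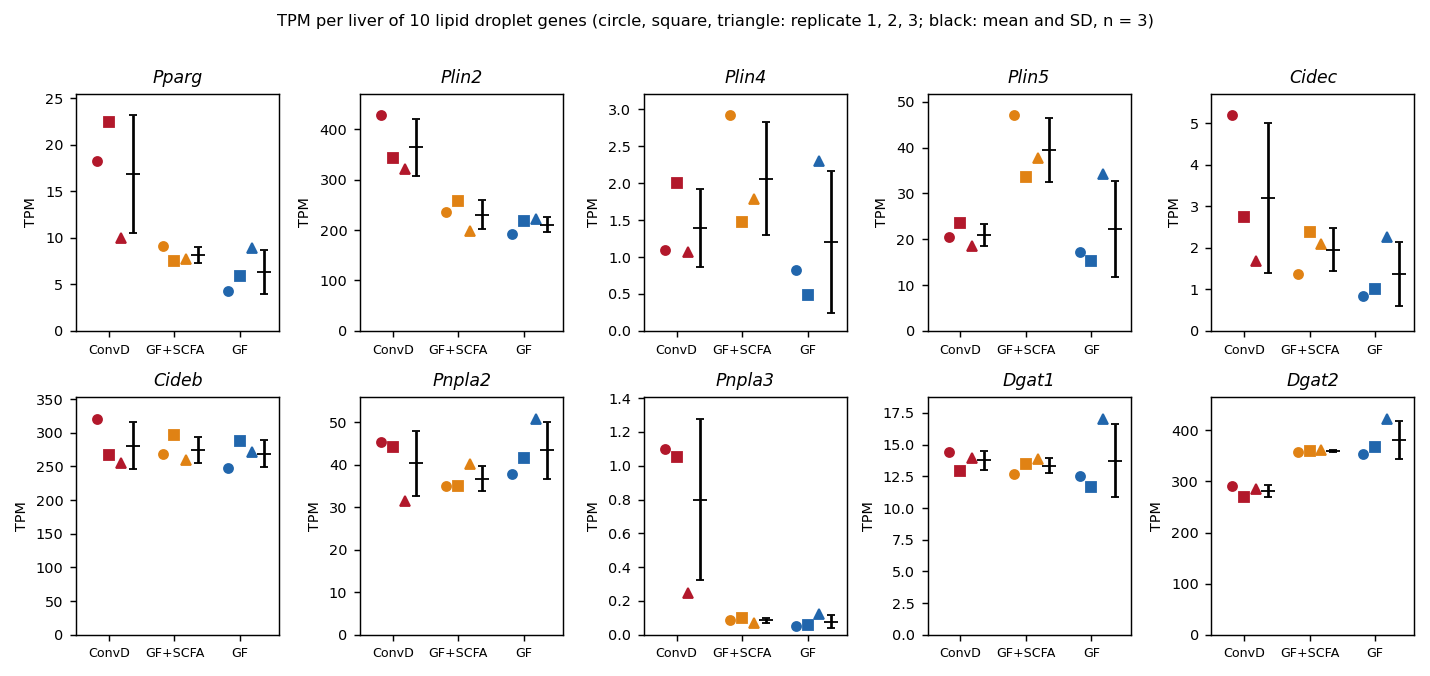
TPM of each of the 10 genes in each liver (vertical axes start at 0 and differ between panels), with the ConvD, GF+SCFA and GF groups along the horizontal axis and black bars for the mean and SD (n = 3). Plin2, Pparg and Pnpla3 lie higher and Dgat2 lower in all 3 ConvD livers than in any GF liver, while Cideb, Dgat1 and Pnpla2 overlap between groups.

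The comparison of ConvD with GF livers asks what differs once germ-free mice carry a microbiota. A coat gene (Plin2), a regulator (Pparg) and a lipase-family gene (Pnpla3) were higher in colonized livers, and the main triglyceride synthesis gene Dgat2 was lower. That makes 3 higher and 1 lower of 10 at an adjusted p under 0.05 (edgeR's quasi-likelihood test, Benjamini-Hochberg adjustment over all genes), against 12.8% of all tested genes called in either direction, 5.93% higher and 6.9% lower. Pnpla3 passed the filter on low counts only through its ConvD livers and so had to differ; without it, 2 of 9 were higher and 1 lower. The same 4 genes had groups that did not overlap, which was true of 31.6% of all genes. The median log2 fold change of the 10 was 0.08, beside 0.00 over all genes tested.

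Plin2 encodes the main perilipin of hepatocyte droplets. It had 428, 342 and 321 TPM in ConvD, 236, 257 and 199 TPM in GF+SCFA and 193, 217 and 223 TPM in GF livers. Each ConvD liver lay above every liver of the other groups, which overlapped each other. The log2 fold change was 0.71 (SE 0.10, adjusted p = 0.000726) against GF and 0.57 (SE 0.10, adjusted p = 0.00167) against GF+SCFA, and both calls held in each of the 19 alternative analyses, among them the 9 fits that left out 1 liver. The macrophage sums given above were also higher in ConvD than in either other group; their part in the result was not tested.

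Dgat2, the main diacylglycerol acyltransferase of hepatocytes, had 291, 269 and 286 TPM in ConvD, 357, 360 and 361 TPM in GF+SCFA and 353, 368 and 422 TPM in GF livers. All 3 ConvD livers were below all 6 others. The log2 fold change was -0.50 (SE 0.07, adjusted p = 0.000854) against GF and -0.44 (SE 0.07, adjusted p = 0.00115) against GF+SCFA, and both calls held in each of the 19 alternatives. Dgat1, the other enzyme of this step, had 14.4, 12.9 and 13.9 TPM in ConvD and 12.5, 11.7 and 17.0 TPM in GF livers, with overlapping groups. Its log2 fold change was -0.05 (95% interval -0.28 to 0.17, adjusted p = 0.783), a sign that turned positive under other scalings. The ratio of Dgat2 to Dgat1 TPM was 20.1 to 20.8 in ConvD, 26.1 to 28.1 in GF+SCFA and 24.8 to 31.6 in GF livers.

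The ratio of Dgat2 to Plin2 TPM within a liver does not depend on library scaling. Dgat2 was lower and Plin2 higher in the same ConvD livers, so the ratio restates those differences and is not separate evidence. It was 0.680, 0.787 and 0.889 in ConvD livers, below 1 in each. It was 1.51, 1.40 and 1.81 in GF+SCFA and 1.83, 1.69 and 1.90 in GF livers, above 1 in each.

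Pparg was low in all livers, at 18.2, 22.4 and 9.95 TPM in ConvD, 9.14, 7.57 and 7.71 TPM in GF+SCFA and 4.25, 5.91 and 8.91 TPM in GF livers. The lowest ConvD liver, replicate 3, lay just above the highest GF liver, replicate 3. The log2 fold change against GF was 1.32 (SE 0.31, adjusted p = 0.0339). This call rests close to the threshold: it was lost in 11 of 19 alternatives. They were the fits without GF replicate 1 or 2 (adjusted p = 0.0813 and 0.103), without ConvD replicate 1 or 2 (0.0909 and 0.0653) or without GF+SCFA replicate 1, 2 or 3 (0.0516, 0.0572 and 0.0554), and 4 other settings. Against GF+SCFA the difference was 0.95 (SE 0.31, adjusted p = 0.0735), with ConvD again above GF+SCFA in all livers, and it passed without ConvD replicate 3 (adjusted p = 0.00771). Macrophages express Pparg too, and 8 of 12 macrophage markers were higher in ConvD than in GF livers; their part in the result was not tested.

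Pnpla3 encodes a droplet protein related to ATGL. It had 1.10, 1.05 and 0.25 TPM in ConvD, 0.09, 0.10 and 0.07 TPM in GF+SCFA and 0.05, 0.06 and 0.12 TPM in GF livers. Every ConvD liver was above every other liver, and ConvD replicate 3 lay far below the others of its group. The summed counts were 139 in ConvD, 15 in GF+SCFA and 14 in GF livers. Scaled for library size, the ConvD sum was 9.93 times that of GF (95% interval 5.72 to 18.6) and 8.68 times that of GF+SCFA (5.08 to 15.9), where the intervals cover counting error only. The log2 fold change was 3.27 (SE 0.55, adjusted p = 0.0039) against GF and 3.07 (SE 0.55, adjusted p = 0.00322) against GF+SCFA. Because its GF and GF+SCFA counts, 3 to 7 per liver, lie under the filter's minimum of 10, the gene was tested only through its high group. Its adjusted p-values are thus not support for a difference. With no filter it passed too (adjusted p = 0.00312 against GF and 0.00289 against GF+SCFA), as it did in the other alternatives that held it. Those fits reuse the same livers and are not separate evidence. The size depended on the scale: on log2(TPM + 0.5), where the pseudocount exceeds every GF and GF+SCFA value, the changes were 1.09 and 1.07.

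Among the CIDE genes, Cidec, which promotes droplet fusion, had 5.19, 2.74 and 1.68 TPM in ConvD and 0.84, 1.01 and 2.25 TPM in GF livers. The groups overlapped, since ConvD replicate 3 lay below GF replicate 3. The log2 fold change was 1.15 (95% interval 0.20 to 2.10, adjusted p = 0.105), and it passed without GF replicate 3 (adjusted p = 0.0423) or without ConvD replicate 3 (adjusted p = 0.0326) and with DESeq2 (adjusted p = 0.0344). Cideb, which in the liver serves droplets and the lipid loading of very-low-density lipoprotein, was among the most abundant of the set and hardly varied. It had 320, 266 and 255 TPM in ConvD, 268, 296 and 259 TPM in GF+SCFA and 248, 288 and 271 TPM in GF livers, with a log2 fold change of -0.01 against GF (95% interval -0.20 to 0.17, adjusted p = 0.942). That sign too turned positive under other scalings, and Cideb overlaps Ltb4r2 and Nop9 in the RefSeq annotation of GRCm38.p6, so reads may be shared. The same limit holds for Plin2 (overlapped by Gm12551), Plin4 (Hdgfl2), Pnpla3 (Gm20369 and Mir6392) and Cidec (Gm52871).

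Pnpla2 had 45.2, 44.2 and 31.5 TPM in ConvD, 35.0, 35.1 and 40.1 TPM in GF+SCFA and 37.9, 41.5 and 50.8 TPM in GF livers. The ranges of ConvD and GF overlapped (log2 fold change -0.17, 95% interval -0.42 to 0.08, adjusted p = 0.349). Its protein partners did not pass either. Abhd5, which activates ATGL, had 14.0, 13.2 and 12.0 TPM in ConvD and 12.4, 11.7 and 14.2 TPM in GF livers (log2 fold change -0.03, adjusted p = 0.808). G0s2, which inhibits ATGL, varied widely within each group, with 99.7, 99.2 and 40.6 TPM in ConvD, 59.2, 145 and 112 TPM in GF+SCFA and 34.0, 26.0 and 116 TPM in GF livers (ConvD against GF 0.41 on the log2 scale, adjusted p = 0.740). That value moved to 1.29 without GF replicate 3 and to 0.07 without GF replicate 2.

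The short-chain fatty acid comparison asks whether the supplement, without a microbiota, moved the same genes. Of the 10 droplet genes 0 passed with edgeR or with DESeq2, and 1, Plin5, had an unadjusted p under 0.05. Over all genes 0.0415% were called with edgeR, 5 in number, and 12.3% had an unadjusted p under 0.05, so the background was low as well. The GF+SCFA livers overlapped the GF livers in 9 of 10 genes on the CPM scale (counts scaled to TMM-normalized library size, the scale of the test), and 17.9% of all genes did not overlap. The intervals below are for single genes and are not adjusted over genes, so they do not bound what could be missed. Whether short-chain fatty acids had a part in the differences between ConvD and GF was not tested. For Plin2 the log2 difference between GF+SCFA and GF was 0.15 (95% interval -0.06 to 0.36, adjusted p = 0.576), beside 0.71 between ConvD and GF. For Dgat2 the difference between GF+SCFA and GF was -0.06 (-0.21 to 0.09, adjusted p = 0.770), and for Pnpla3 0.19 (-1.63 to 2.01, adjusted p = 0.946). For Pparg it was 0.38 (-0.39 to 1.14, adjusted p = 0.694). Biliary markers summed to 26.9 to 31.0 TPM in GF+SCFA and 49.9 to 51.2 TPM in GF livers. Most of each sum was 1 gene, Spp1, at 24.3 to 28.6 TPM in GF+SCFA and 45.0 to 47.3 TPM in GF livers. Of 5 tested, 4 lay lower in GF+SCFA livers without overlap, and 0 passed. Their part in the results was not tested.

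Plin5, a perilipin of oxidative tissues that tethers droplets to mitochondria, followed another pattern. It had 20.5, 23.5 and 18.6 TPM in ConvD, 47.1, 33.7 and 37.6 TPM in GF+SCFA and 17.3, 15.3 and 34.3 TPM in GF livers. The GF+SCFA livers were highest apart from GF replicate 3, which stood at about the level of GF+SCFA replicate 2. The log2 fold change of GF+SCFA against GF was 0.87 (SE 0.28, 95% interval 0.20 to 1.54, adjusted p = 0.324). It did not pass, and without GF replicate 3 it was 1.25 with an adjusted p = 0.00477. ConvD livers were below all GF+SCFA livers (log2 fold change -1.01, SE 0.28), just short of the threshold (adjusted p = 0.0508). That difference passed without GF replicate 2 (adjusted p = 0.0398) or 3 (adjusted p = 0.000605), with DESeq2 (0.00645), in a fit of these 2 groups alone (0.00189) and with a minimum count of 30 (0.0475). ConvD and GF livers overlapped (-0.14, adjusted p = 0.801).

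Plin4, a perilipin of adipose tissue and muscle, was low, at 1.10, 2.00 and 1.07 TPM in ConvD, 2.92, 1.47 and 1.78 TPM in GF+SCFA and 0.82, 0.49 and 2.30 TPM in GF livers. All groups overlapped, and GF replicate 3 was again the highest of its group. The log2 fold changes had wide intervals, 0.18 for ConvD against GF (-1.24 to 1.60, adjusted p = 0.881), 0.83 for GF+SCFA against GF (-0.55 to 2.20, adjusted p = 0.617, and 0.47 without GF replicate 2 to 1.64 without GF replicate 3) and -0.64 for ConvD against GF+SCFA (adjusted p = 0.483).

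ConvD livers set against GF+SCFA livers compare a microbiota with the supplement alone. Plin2 and Pnpla3 were higher and Dgat2 lower, 3 of 10 genes, against 18.4% of all genes called (9.44% higher and 8.97% lower). Here too Pnpla3 passed the filter on low counts only through its ConvD livers and so had to differ. Without it, the calls are those of Plin2 and Dgat2. Markers of other cell types differed in the same livers. Biliary markers summed to 44.5 to 76.4 TPM in ConvD and 26.9 to 31.0 TPM in GF+SCFA livers (1 of 5 tested higher). The 1 gene was Spp1, which made up most of each sum, at 41.8 to 71.6 TPM in ConvD livers. The GF livers, at 49.9 to 51.2 TPM, lay within the ConvD range. Stellate cell markers summed to 259 to 298 TPM in ConvD, 216 to 242 TPM in GF+SCFA (3 of 10 higher in ConvD) and 217 to 307 TPM in GF livers. Red cell markers summed to 716 to 2927 TPM in ConvD and 426 to 678 TPM in GF+SCFA livers (0 of 5 passed), and 3 of 12 macrophage markers were higher. Their part in the results was not tested. With Pparg and Plin5, 5 of 10 had groups that did not overlap, against 38% of all genes, and Pnpla3 is in that count as well. This comparison and that of ConvD with GF use the same ConvD livers, so their like values are not separate evidence. Cideb (-0.06, adjusted p = 0.668), Dgat1 (-0.04, adjusted p = 0.824), Pnpla2 (0.04, adjusted p = 0.841) and Cidec (0.61, adjusted p = 0.331) did not pass.

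**Figure D2:**
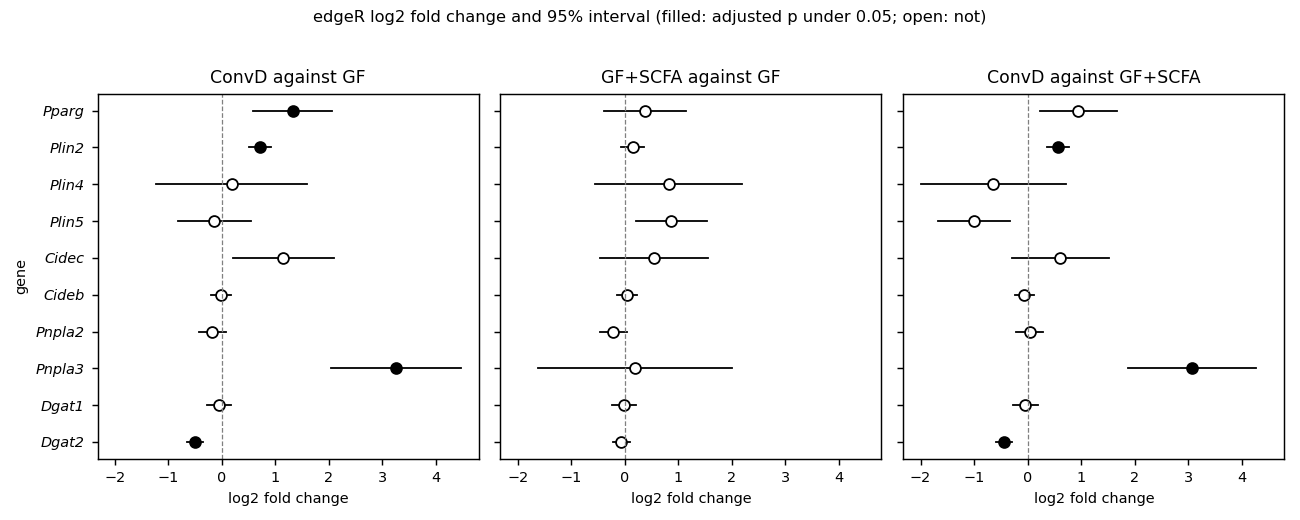
Log2 fold change (horizontal axis, with 95% interval) of each of the 10 genes in the 3 comparisons, from the edgeR fit over all 9 livers, with filled points for an adjusted p under 0.05. Plin2 and Pnpla3 lie right of 0 and Dgat2 left of 0 in both comparisons with ConvD, Pparg is filled only against GF, and no point is filled for GF+SCFA against GF.

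Some pairs of genes varied together from liver to liver within groups. After the group means were removed, the 45 pairs ranged from -0.64 (Plin4 with Cideb) to 0.97, and Plin2 with Dgat2 had -0.16. At the top, Plin4 and Plin5, which lie close together on chromosome 17, had a Pearson r of 0.97 after this removal. With the group means left in, it was 0.87. The next 4 values after removal were 0.86 for Pparg with Pnpla2, 0.85 for Plin2 with Cideb, 0.81 for Pparg with Pnpla3 and 0.80 for Pnpla2 with Pnpla3. These values describe 9 libraries that share depth and scaling, with 1 or 2 livers, above all GF replicate 3 for Plin4 and Plin5 and ConvD replicate 3 for Pparg and Pnpla3, far from the others. Over all tested genes and the 9 livers, with the groups' own differences included, Pnpla3 was most like Slc16a1, a monocarboxylate transporter gene (r = 0.99), and Samd9l (0.97). Dgat2 was most like Slc16a12 (0.99) and Atp6v0a2 (0.98), Plin2 like Fchsd1 (0.97) and Sqstm1 (0.97), and Pparg like Snx1 (0.97) and R3hcc1 (0.95). Each was picked as the highest of all tested genes for a member that differed between groups. High values were thus built in, and a link between these genes was not tested.

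**Figure D3:**
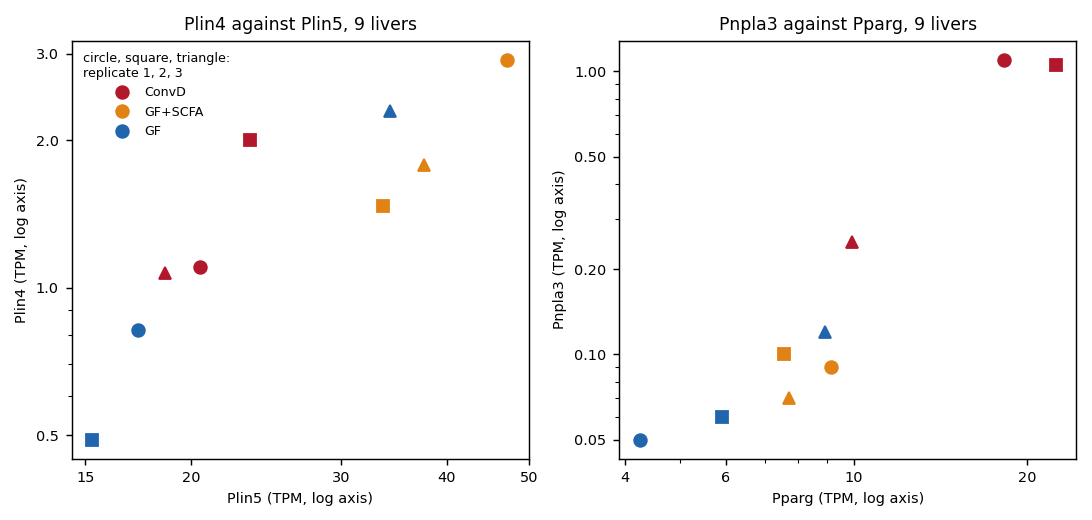
Plin4 against Plin5 (left) and Pnpla3 against Pparg (right) in TPM on log axes, with 1 point per liver, colors for ConvD, GF+SCFA and GF, and circle, square and triangle for replicates 1, 2 and 3. GF replicate 3 lies with the GF+SCFA livers in the left panel, and ConvD replicates 1 and 2 lie apart from the other livers in the right panel.

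The promoters of Plin2, Pnpla3, Plin4 and Plin5 are shown as the 250 bases before a RefSeq start in GRCm38.p6, read 5′ to 3′ on the gene's strand. Plin2 and Pnpla3 passed both comparisons with ConvD, Pnpla3 tested only through its ConvD livers. Plin4 and Plin5 are the pair with the highest r within groups. RefSeq windows matched 8 of the 10 genes (not Dgat1 and Dgat2), 12 windows in all. Capitals mark AGGTCA (the core site of nuclear receptors such as the PPARs), CCAAT and GGGCGG (a GC box), each on either strand. The windows are chr4:86670060-86670309 (minus strand) for Plin2, chr15:84167566-84167815 (plus strand) for Pnpla3, chr17:56109783-56110032 (minus strand) for Plin4 and chr17:56117549-56117798 (minus strand) for Plin5.
Plin2: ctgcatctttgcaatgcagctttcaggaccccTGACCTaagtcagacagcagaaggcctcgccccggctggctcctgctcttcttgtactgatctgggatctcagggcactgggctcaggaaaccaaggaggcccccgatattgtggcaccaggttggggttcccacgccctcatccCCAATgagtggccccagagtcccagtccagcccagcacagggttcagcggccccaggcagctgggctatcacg
Pnpla3: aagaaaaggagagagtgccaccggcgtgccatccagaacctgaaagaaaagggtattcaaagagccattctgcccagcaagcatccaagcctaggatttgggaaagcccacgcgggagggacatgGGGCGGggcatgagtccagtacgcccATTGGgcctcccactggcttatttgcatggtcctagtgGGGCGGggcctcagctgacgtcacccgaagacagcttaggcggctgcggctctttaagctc
Plin4: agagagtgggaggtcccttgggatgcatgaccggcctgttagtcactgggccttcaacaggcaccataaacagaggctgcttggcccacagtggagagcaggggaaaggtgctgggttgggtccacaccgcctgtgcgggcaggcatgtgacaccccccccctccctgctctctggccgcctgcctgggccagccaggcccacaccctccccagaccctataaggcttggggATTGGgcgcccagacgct
Plin5: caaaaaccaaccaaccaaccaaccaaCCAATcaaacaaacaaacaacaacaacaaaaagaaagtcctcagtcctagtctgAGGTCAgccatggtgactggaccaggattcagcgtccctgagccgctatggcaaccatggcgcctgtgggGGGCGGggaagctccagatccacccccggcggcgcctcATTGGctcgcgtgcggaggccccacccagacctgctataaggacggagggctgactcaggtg
Plin2 holds 1 AGGTCA, on the minus strand and 218 bases before the start, and 1 CCAAT. Pnpla3 holds 2 GGGCGG and 1 CCAAT and no AGGTCA. In the windows shown, Plin4 and Plin5 each hold a CCAAT, 18 and 62 bases before the start. This Plin5 window also holds 1 match to each of the other motifs and another CCAAT farther upstream. The window of the other Plin5 start, chr17:56117299-56117548 and not shown, holds 2 GGGCGG, 0 CCAAT and 0 AGGTCA. Over the 8 genes, AGGTCA occurred in 4 of 12 windows (Plin2, Plin5 and 2 of the 3 Pparg starts), against 14% of 32851 mouse promoter windows of this length. CCAAT occurred in 6 windows, against 33.8%, and GGGCGG in 7, against 32.7%. The DR1 element (2 copies of AGGTCA with 1 base between them, so that each match also counts above), the E-box CACGTG and the sterol element TCACNCCAC were in 0 of 12 windows, against 0.0335%, 6.02% and 1.05% of all. These are matches of letters in these windows and do not show binding.

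Beyond the 10 genes, lists of droplet and triglyceride genes were read in the same fit, with levels in CPM. Of 75 tested genes of 5 lists, 10 were higher and 12 lower in ConvD than in GF livers, against 5.93% and 6.9% of all genes. Against GF+SCFA livers 8 were higher and 19 lower in ConvD, against 9.44% and 8.97% of all genes. Between GF+SCFA and GF livers 0 passed with edgeR, 14 had an unadjusted p under 0.05 (12.3% of all genes did), and DESeq2 called 2, Agpat2 (0.38, adjusted p = 0.00287) and Insig2 (0.74, adjusted p = 0.000461), both higher in GF+SCFA and named after their values were seen. Losses of a call beside a gene below are those in the 9 fits that left out a liver, unless another setting is named. The adjusted p beside a loss is from those fits, and for some genes it was higher in other settings. Of 72 calls of list and marker genes, 28 held in every such fit and 27 in every alternative. Between ConvD and GF, Ncor1 lost its call in 8 of 19 alternatives (adjusted p up to 0.279). Against GF+SCFA, Nr1h3 and Mettl7b each lost it in 8 of 19 (up to 0.38 and 0.175) and Creb3l3 in 11 (up to 0.293).

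**Figure D4:**
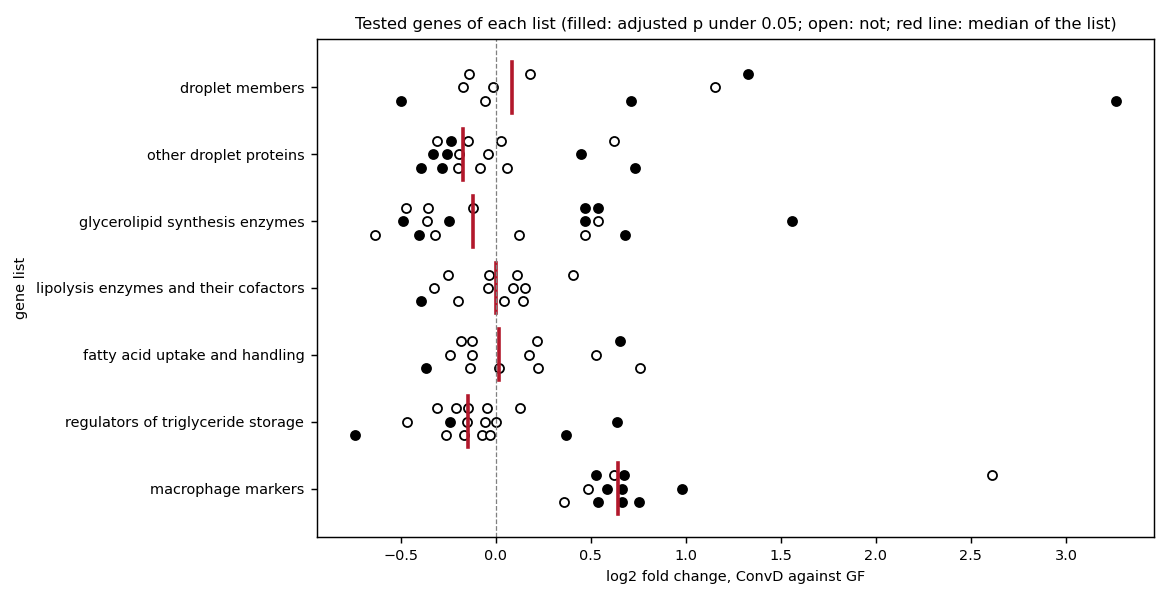
Log2 fold change of ConvD against GF (horizontal axis, edgeR) of each tested gene of the 10 droplet genes, the 5 other lists and the macrophage markers, with filled points for an adjusted p under 0.05 and a red line at each list's median. Filled points lie on both sides of 0 in every list but those of lipolysis, with 1 filled point, below 0, and of the macrophage markers, with 8, above 0.

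Among other droplet proteins, 2 of 16 tested genes were higher and 5 lower in ConvD than in GF livers (5.93% and 6.9% over all genes), with a median log2 fold change of -0.17. Plin3, the broadly expressed perilipin, averaged 31.2 ± 3.74 CPM in ConvD, 20.3 ± 2.37 CPM in GF+SCFA and 22.9 ± 3.66 CPM in GF livers (SD, n = 3 each). Its log2 fold change was 0.45 against GF (adjusted p = 0.0343, lost in 5 of the 9 fits that left out a liver, with 0.126 without ConvD replicate 1) and 0.62 against GF+SCFA (adjusted p = 0.00564, held in all 9). Fitm1, which binds triglyceride at the site of droplet budding, averaged 42.3 ± 6.34 CPM in ConvD and 25.5 ± 1.65 CPM in GF livers (0.73, adjusted p = 0.022, lost in 5 of 9 fits, with 0.0815 without GF replicate 2). Its relative Fitm2 was lower in ConvD than in GF+SCFA livers (-0.47, adjusted p = 0.0213, lost in 3 of 9 fits, with 0.0837 without GF+SCFA replicate 3). Acsl3, an acyl-CoA synthetase of nascent droplets (-0.39, adjusted p = 0.0198, lost in 3 of 9 fits, with 0.0837 without GF replicate 1), and the droplet-associated Mettl7a1 (-0.33, adjusted p = 0.0198, lost in 4 of 9, with 0.0828 without ConvD replicate 2) were lower in ConvD than in GF livers. Against GF+SCFA livers 1 of 16 was higher and 4 lower (9.44% and 8.97% over all genes), among them Aup1 (-0.30, adjusted p = 0.00795, lost with library totals, at 0.0596, and with limma on TPM, at 0.155) and Mettl7b (-0.29, adjusted p = 0.0234, lost in 5 of 9 fits, with 0.0751 without GF+SCFA replicate 1).

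Of 17 tested enzymes of glycerolipid synthesis, 5 were higher and 3 lower in ConvD than in GF livers (median -0.12), and 5 were higher and 6 lower than in GF+SCFA livers (median -0.23). Over all genes 12.8% were called in the first comparison and 18.4% in the second. The steps did not move one way. Gpat4 (Agpat6 in the files), a glycerol-3-phosphate acyltransferase of the endoplasmic reticulum, averaged 174 ± 22.3 CPM in ConvD, 265 ± 13.9 CPM in GF+SCFA and 229 ± 23.6 CPM in GF livers. It was lower in ConvD against GF (-0.40, adjusted p = 0.0164, lost in 2 of 9 fits, with 0.0538 without ConvD replicate 1) and against GF+SCFA (-0.61, adjusted p = 0.000981). Gpam, the mitochondrial enzyme of the same step, was chosen after its values were seen. It averaged 264 ± 63.1 CPM in ConvD, 169 ± 3.18 CPM in GF+SCFA and 190 ± 11.9 CPM in GF livers, higher in ConvD by 0.64 against GF+SCFA (adjusted p = 0.00883) and by 0.47 against GF (adjusted p = 0.0441, lost in 7 of 9 fits, with 0.131 without GF replicate 1).

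Agpat1, of the next acylation, was lower in ConvD than in GF livers (-0.49, adjusted p = 0.0196, lost without GF replicate 1, at 0.0668, and without ConvD replicate 3, at 0.0572). Lpin3, a phosphatidate phosphatase, was higher in ConvD by 0.68 against GF (adjusted p = 0.015, 0.0695 without ConvD replicate 1) and 0.77 against GF+SCFA (adjusted p = 0.00564). Lpin3 was low, at 4.07, 2.76 and 2.98 TPM in ConvD livers. Lpin2, of the same step and picked after its values were seen, went the other way. It had 114, 105 and 133 TPM in ConvD, 171, 198 and 200 TPM in GF+SCFA and 118, 151 and 202 TPM in GF livers. Against GF+SCFA, Lpin2 was called lower in all 19 alternatives (-0.91 to -0.69, adjusted p at most 0.0393). The acyl-CoA synthetase genes Acsl5 and Acsl1 differed in direction. Acsl5 was higher in ConvD than in GF livers (0.47, adjusted p = 0.0112, 0.0527 without GF replicate 1) and than in GF+SCFA livers (0.46, adjusted p = 0.00838), while Acsl1 was lower against GF+SCFA (-0.40, adjusted p = 0.00281).

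Mogat1, a monoacylglycerol acyltransferase known in mice as a target of PPAR-gamma and chosen after its values were seen, was low at 1.73, 0.88 and 1.00 TPM in ConvD, 0.88, 1.15 and 0.86 TPM in GF+SCFA and 0.57, 0.19 and 0.41 TPM in GF livers. It was higher in ConvD than in GF livers (1.56 on the log2 scale, adjusted p = 0.0237, lost in 3 of 9 fits, with 0.104 without ConvD replicate 1). Its GF livers, at 0.43, 0.15 and 0.28 CPM, lie under the filter's minimum count of 10. The gene was thus tested only through the ConvD and GF+SCFA livers, where it is higher. It is among the enzymes counted above as higher against GF.

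Of 12 lipolysis genes, 0 were higher and 1 lower in ConvD than in GF livers (median 0.00), and 0 were higher and 4 lower than in GF+SCFA livers (median -0.20). The first count is near the 12.8% called over all genes and is no result about the list; the second stands beside 18.4%. Abhd6, a monoacylglycerol lipase, averaged 33.2 ± 4.72 CPM in ConvD, 52.3 ± 4.93 CPM in GF+SCFA and 43.6 ± 4.25 CPM in GF livers. It was lower in ConvD against GF (-0.39, adjusted p = 0.0285, lost in 4 of 9 fits, with 0.108 without ConvD replicate 2) and against GF+SCFA (-0.65, adjusted p = 0.00127). Ces1d, a triglyceride hydrolase of the endoplasmic reticulum, averaged 726 ± 79.1 CPM in ConvD and 1059 ± 60.8 CPM in GF+SCFA livers (-0.55, adjusted p = 0.00431). Mgll, the main monoacylglycerol lipase, was lower by the same comparison (-0.34, adjusted p = 0.0201, lost in 3 of 9 fits, with 0.0895 without GF+SCFA replicate 2), as was Pnpla6, a lysophospholipase (-0.42, adjusted p = 0.0255, lost in 4 of 9 fits, with 0.117 without GF+SCFA replicate 2).

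Of 13 tested genes of fatty acid uptake and handling, 1 was higher and 1 lower in ConvD than in GF livers, and 1 was higher and 2 lower than in GF+SCFA livers. Both counts are near the 12.8% and 18.4% called over all genes. Lpl, the lipase that frees fatty acids from circulating lipoproteins and is made in the liver by macrophages among other cells, averaged 37.6 ± 9.38 CPM in ConvD, 17.3 ± 2.90 CPM in GF+SCFA and 23.9 ± 2.93 CPM in GF livers. It was higher in ConvD against GF (0.65, adjusted p = 0.0488, lost in 6 of 9 fits, with 0.139 without GF replicate 2) and against GF+SCFA (1.12, adjusted p = 0.00437). The macrophage sums were higher in the same livers and their part was not tested. Slc27a2, a fatty acid transporter of hepatocytes, averaged 1257 ± 87.0 CPM in ConvD, 1681 ± 36.8 CPM in GF+SCFA and 1622 ± 59.6 CPM in GF livers (-0.37 against GF, adjusted p = 0.00922; -0.42 against GF+SCFA, adjusted p = 0.00279), and both calls held whichever liver was left out. Angptl4, which inhibits Lpl, was lower in ConvD than in GF+SCFA livers (-0.59, adjusted p = 0.0174, lost in 3 of 9 fits, with 0.0586 without GF+SCFA replicate 3). Cd36, a fatty acid receptor chosen after its values were seen, had 39.8, 31.7 and 30.8 TPM in ConvD and 15.2, 17.4 and 24.7 TPM in GF livers, without overlap, and did not pass (0.76, adjusted p = 0.057). It passed in 7 of 19 alternatives, among them DESeq2 (adjusted p = 0.000500) and the fits without GF replicate 3 (0.0487) or GF+SCFA replicate 2 (0.0155) or 3 (0.0185).

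Of 17 regulators, 2 were higher and 2 lower in ConvD than in GF livers, and 1 was higher and 3 lower than in GF+SCFA livers, beside 12.8% and 18.4% called over all genes. Foxo1, a transcription factor that insulin signaling restrains, averaged 28.0 ± 1.60 CPM in ConvD, 47.7 ± 1.72 CPM in GF+SCFA and 46.8 ± 5.08 CPM in GF livers (-0.74 against GF, -0.77 against GF+SCFA), with an adjusted p of at most 0.00135 in any fit without 1 liver. Cebpa, a hepatocyte and adipocyte transcription factor, was higher in ConvD by 0.37 against GF (adjusted p = 0.0168, lost without GF replicate 1, at 0.0702, and without ConvD replicate 1, at 0.0661) and by 0.49 against GF+SCFA (adjusted p = 0.00229). Insig2, which retains the SREBP complex in the endoplasmic reticulum, was higher in ConvD than in GF livers (0.64, adjusted p = 0.0226, lost in 3 of 9 fits, with 0.0801 without GF replicate 2). The corepressor gene Ncor1 was lower (-0.24, adjusted p = 0.0334, lost in 4 of 9 fits, with 0.123 without GF replicate 2). Nr1h3, encoding LXR-alpha, was lower in ConvD than in GF+SCFA livers (-0.21, adjusted p = 0.0274, lost in 5 of 9 fits, with 0.0936 without ConvD replicate 1), as was Creb3l3 (-0.22, adjusted p = 0.0452, lost in 5 of 9 fits, with 0.151 without GF+SCFA replicate 1). The lipogenic regulators Srebf1 (0.13, adjusted p = 0.821) and Mlxipl (-0.03, adjusted p = 0.923) and the fatty acid oxidation regulator Ppara (-0.16, adjusted p = 0.287) did not pass between ConvD and GF livers; these 3 were picked after their values were seen.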

How the data were processed

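The expected counts were deposited by the authors as RSEM estimates per gene and are not normalized. The deposited TPM values are, per the file headers, the authors' own values, scaled for gene length and depth. Per the submitters' processing notes, Bowtie2 and RSEM 1.2.23 were used with mouse build mm9; the strand setting is not given in the sources used here. Libraries were made with a stranded mRNA kit, per the labels' protocols.

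Expected counts were rounded and fitted with edgeR 4.0.16 in R 4.3.3: filterByExpr (minimum count 10), TMM factors (0.935 to 1.06), a 3-group model over 9 livers with 6 residual degrees of freedom and robust quasi-likelihood dispersions, and Benjamini-Hochberg adjustment over 12037 genes at a threshold of 0.05. Each SE is |log2 fold change| over the root of its F statistic. DESeq2 1.42.0 and limma 3.58.1 (on log2 of TPM plus 0.5) served as alternatives. Nothing names the animal behind each sample, so the spread that p-values rest on may be partly technical.

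The members and lists were chosen with earlier results of these data known. Named beside the 10 members are up to 4 called genes per list and comparison with the smallest adjusted p, Abhd5, G0s2 and Plin3, and the 2 genes with the highest Pearson r of log2(CPM + 0.5) to each member called in ConvD against GF. Outside this rule, and named after their values were seen, are Gpam, Lpin2, Mogat1, Cd36, Srebf1, Mlxipl, Ppara, Agpat2 and the marker genes. Depth limits Pnpla3, with 3 to 63 counts per liver. Promoter windows come from RefSeq for GRCm38.p6, a build other than the files', and give no position of the counted reads.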

Additional observations from a re-analysis of the deposited data

How the results depend on the processing

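Of 566 refits of the 10 genes' fold changes under the alternatives, 518 kept their direction and their side of the threshold, 11 lost the call, 11 gained one and 26 changed sign without passing. The sign of Cideb between ConvD and GF turned with upper-quartile factors (0.0484), library totals (0.0708) and limma on TPM (0.0568), and that of Dgat1 likewise (0.00709, 0.0201 and 0.0214). Against GF+SCFA, Cideb turned with library totals (0.0133) and limma (0.0264) and Dgat1 with upper-quartile factors (0.0142), library totals (0.0311) and limma (0.0439). These scalings moved the median gene by up to 0.08, and the share of higher calls with it: 714 higher and 830 lower between ConvD and GF with TMM, 1058 and 543 with upper-quartile factors, 1061 and 391 with library totals; against GF+SCFA 1136 and 1080, 1515 and 752, and 1541 and 586. Without 1 liver, the log2 fold change between ConvD and GF ranged from -0.18 to 1.00 for Plin4, -0.0765 to 0.0768 for Cideb, -0.32 to 0.24 for Plin5 and -0.127 to 0.0734 for Dgat1. Dgat1 ranged from -0.0852 to 0.112 between GF+SCFA and GF and from -0.0839 to 0.00102 between ConvD and GF+SCFA, where Pnpla2 ranged from -0.0368 to 0.163.

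All genes called between ConvD and GF numbered 1544, 1015 with limma and 849 (without ConvD replicate 2) to 1466 without 1 liver. Between ConvD and GF+SCFA they numbered 2216, and 1383 (without GF+SCFA replicate 2) to 2393 without 1 liver. Between GF+SCFA and GF they numbered 5, 9 with library totals, 82 with DESeq2, 1 with limma, 24 without a filter and 0 to 173 (without GF replicate 3) without 1 liver. Of the 10 genes, DESeq2 called 5 between ConvD and GF+SCFA, adding Pparg and Plin5, and 0 to 1 were called between GF+SCFA and GF without 1 liver (1, Plin5, without GF replicate 3).

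The replicate numbers did not pair the samples: deviations of same-numbered livers correlated at -0.08 to 0.19. With the replicate number as a block, 3 of the 10 genes were called between ConvD and GF and 3 between ConvD and GF+SCFA; Pparg was not among the first (adjusted p = 0.083). Pparg also missed the threshold with limma (0.0594), without a filter (0.0608) and with the 2 groups alone (0.0827). A minimum count of 30 removed Pnpla3 from the test. The causes of these shifts were not tested.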
